A study of Mus musculus with 6 samples.

Results

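Cells answer a shortage of oxygen through hypoxia-inducible factors (HIFs), and 10 genes of that response were followed in mouse hearts after pressure overload. The genes were chosen by symbol, with earlier results of these data known. They were 3 alpha subunits of the factors (Hif1a, Epas1 and Hif3a), 2 prolyl hydroxylases that mark those subunits for destruction (Egln1 and Egln3) and 5 genes known to be induced by low oxygen (Ankrd37, Ddit4, Adm, Ndrg1 and Bnip3). All 10 were found among the 18019 genes of the deposited table.

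The 6 libraries came from hearts of mice of wild-type genotype, 3 of them VNS-TAC and 3 Ctrl-TAC, taken 8 weeks after transverse aortic constriction (TAC), an operation that narrows the aorta and was done in both groups. VNS-TAC mice carried rAAV-ChAT-hChR2[H134R]-GFP, a virus that puts a light-gated channel under the promoter of choline acetyltransferase (ChAT), in the dorsal vagal motor nucleus (DVMN), so that vagal preganglionic neurones could be driven by light. Ctrl-TAC mice carried rAAV-ChAT-GFP, the same virus without the channel. The labels give no strain, age, sex or light schedule beyond the term 10Hz in the names of the VNS-TAC libraries, and no hearts without TAC were analysed here, so both groups stand for overloaded hearts. The treatment tag of the labels reads VNS for all 6 samples, and the groups were therefore taken from the titles.

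As background, the alpha subunits are made all the time and are removed when oxygen is plentiful, because prolyl hydroxylases modify them and the von Hippel-Lindau protein then hands them to the proteasome. When oxygen is low the alpha subunit survives, pairs with Arnt and binds a short motif, the hypoxia response element, beside its target genes. Control of the HIFs thus acts largely on protein, which RNA does not measure. In the heart, hypoxia targets serve glycolysis, vessel growth and the removal of mitochondria, and Egln3 and Egln1 are themselves targets that close a feedback loop.

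The core of the hypoxia response element was searched as ACGTG and GCGTG on both strands (read on the other strand as CACGT and CACGC) in the 250 bases before an annotated transcript start of each gene, taken from RefSeq on GRCm38.p6. Promoters were at hand for 8 of the 10 genes, and all 8 held at least 1 match. A match was held by 38.6% of all 32851 promoters at hand, and of the 11725 promoters of genes tested below 55.7% did. A match is a string of letters and says nothing of whether a factor binds there. The promoters of Ankrd37, Bnip3, Adm and Hif1a are shown because these 4 genes had the smallest unadjusted p among the 10, with matches in capitals. Overlapping matches run together, as CACGTG in Bnip3 and Hif1a and CACGCGTG in Ankrd37.
Ankrd37: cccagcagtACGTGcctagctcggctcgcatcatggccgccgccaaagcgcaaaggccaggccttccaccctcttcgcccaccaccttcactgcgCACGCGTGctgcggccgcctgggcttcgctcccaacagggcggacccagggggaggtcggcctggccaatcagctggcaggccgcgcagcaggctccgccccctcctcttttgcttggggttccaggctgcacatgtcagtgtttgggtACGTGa
Bnip3: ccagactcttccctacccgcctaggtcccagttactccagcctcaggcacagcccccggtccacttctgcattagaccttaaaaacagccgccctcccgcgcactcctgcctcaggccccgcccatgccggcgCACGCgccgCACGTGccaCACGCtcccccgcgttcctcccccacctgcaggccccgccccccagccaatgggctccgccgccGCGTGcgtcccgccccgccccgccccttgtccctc
Adm: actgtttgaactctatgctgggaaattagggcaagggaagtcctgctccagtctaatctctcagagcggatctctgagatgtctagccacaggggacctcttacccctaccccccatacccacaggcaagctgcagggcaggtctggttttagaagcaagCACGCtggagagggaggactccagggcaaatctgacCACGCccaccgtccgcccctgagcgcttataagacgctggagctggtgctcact
Hif1a: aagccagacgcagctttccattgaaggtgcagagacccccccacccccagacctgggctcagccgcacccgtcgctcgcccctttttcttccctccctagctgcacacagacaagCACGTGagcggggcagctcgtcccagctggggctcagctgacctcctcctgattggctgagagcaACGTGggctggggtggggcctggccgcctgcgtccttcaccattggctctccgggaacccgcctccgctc
The stretches lie at chr8:45999851-46000100 (- strand), chr7:138909507-138909756 (- strand), chr7:110627407-110627656 (+ strand) and chr12:73907617-73907866 (+ strand). For Hif1a and Ankrd37 the transcript start lies 6543 and 564 bases inside the outer boundary of the gene given further on, so those stretches are within the gene, and for the other 6 genes start and boundary coincide. Ankrd37 had 4 matches, Bnip3 5, Adm 2 and Hif1a 3, counting overlapping ones separately. The 2 matches of Adm were both of the GCGTG form and the 3 of Hif1a all of the ACGTG form. Hif1a, whose RNA was lower in VNS-TAC hearts, held the letters as did the 3 genes with higher RNA.

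Levels are FPKM, fragments scaled to gene length and library size, as the authors deposited them. Groups were compared with limma on log2(FPKM + 1), a scale that understates the change of low genes, over the 11422 genes averaging 1 FPKM or more, and p-values were adjusted over all of these by the Benjamini-Hochberg method with a threshold of 0.05. Of the 10 genes, 9 were tested, and Hif3a, with a mean below the filter, was not. The exact permutation test of a single gene, 2-sided over 20 assignments of 3 libraries against 3, cannot give a p below 0.1. The labels do not say that each library is a separate animal, so p-values measure the spread between libraries, which may be partly technical.

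Depth was put at about 14980000 to 16100000 fragments in VNS-TAC and 13900000 to 15180000 in Ctrl-TAC from the steps between low values. This estimate is weak, because in every library another depth scored nearly as well (0.338 against 0.351 in VNS-TAC 1). The VNS-TAC libraries differed more among themselves, with correlations across genes of 0.941 to 0.979, against 0.988 to 0.992 among Ctrl-TAC. VNS-TAC 1 and VNS-TAC 3 stood farthest apart, and for the 10 genes the fold change without either is given where it moved by over 1.5 times. Cardiac identity was clear in every library, with all 6 cardiomyocyte markers present and their summed level at 33532 to 39848 FPKM in VNS-TAC libraries, against 30214 to 31006 FPKM in Ctrl-TAC. In tissue of mixed cells, fewer cells of a type and less RNA per cell cannot be told apart. Neutrophil markers (6 of 6 matched) summed to 44.8 to 98 FPKM in VNS-TAC and to 0.86 to 4.09 FPKM in Ctrl-TAC, where Ngp, Ly6g and Camp were each at 0 in 2 libraries. Macrophage markers (6 of 6, none at 0) summed to 71.8 to 151 FPKM in VNS-TAC libraries, against 106 to 115 FPKM in Ctrl-TAC. Red blood cell markers (5 of 5, none at 0) summed to 25.1 to 1503 FPKM in VNS-TAC libraries, against 183 to 578 FPKM in Ctrl-TAC. Smooth muscle and pericyte markers (6 of 6, none at 0) summed to 127 to 192 FPKM in VNS-TAC and 195 to 278 FPKM in Ctrl-TAC. Adipocyte markers (5 of 5, Lep at 0 in some libraries) summed to 2.64 to 25.4 FPKM in VNS-TAC and 9.3 to 64.5 FPKM in Ctrl-TAC. The defining genes of the lists included S100a9 of neutrophils, at 20.96 to 41.97 FPKM in VNS-TAC libraries, against 0.39 to 1.83 FPKM in Ctrl-TAC, and Cd68 of macrophages, at 6.3 to 11.15 FPKM in VNS-TAC libraries, against 7.29 to 8.76 FPKM in Ctrl-TAC. Myh6, the main myosin of cardiomyocytes, was at 3212.25 to 6323.54 FPKM in VNS-TAC libraries, against 4538.82 to 5805.02 FPKM in Ctrl-TAC. The part of these cells in the levels below was not tested.

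Several hypoxia-induced genes stood higher in VNS-TAC hearts while Hif1a itself stood lower, but no gene of the 10 passed the adjusted threshold in limma. Bnip3, Adm, Ankrd37 and Ndrg1 were above Ctrl-TAC in all 3 VNS-TAC libraries and Hif1a was below in all 3, while Epas1, Egln1, Egln3 and Ddit4 overlapped. Among all tested genes 0% passed that threshold, and 1719 (15.0%) had an unadjusted p under 0.05, of which 433 were higher and 1286 lower. By that measure, 3 of the 9 tested genes were higher (Ankrd37, Adm and Bnip3) and 1 was lower (Hif1a). Of all tested genes 3.79% and 11.3% were. The 10 genes were chosen with earlier results of these data known, so shares set beside those of all genes only describe them. Without VNS-TAC 1, 5 of the 9 were higher by unadjusted p, against 7.09% of all tested genes. This count was 4 after quantile normalization and with library weights. It was 2 with no filter, with genes averaging 5 FPKM or more, and with equal library sums. The count was also 2 without Ctrl-TAC 1, Ctrl-TAC 3 or VNS-TAC 2. For the counts of 4 and 2 the share of all genes was not taken. Hif1a did not reach an unadjusted p under 0.05 without Ctrl-TAC 1, without Ctrl-TAC 2 or with no filter. In those settings 5.49%, 5.17% and 10.4% of all genes were lower. Groups did not overlap for 4 genes in the higher and 1 in the lower direction, against 8.01% and 17.4% of all tested genes (25.4% in either). Without VNS-TAC 1 these counts were 6 and 1, against 14.9% and 26.9%, and without VNS-TAC 3 they were 5 and 1, against 12.4% and 28.4%. When limma estimated a weight for each library, a setting in which VNS-TAC 1 and 3 counted little, 3 of the 9 genes passed the adjusted threshold as higher (Ankrd37, Adm and Bnip3) and 1 as lower (Hif1a). In that setting 2.25% of all tested genes passed as higher and 6.65% as lower, 8.90% in all. The median log2 fold change of the 9 genes was 0.22, or 0.39 without VNS-TAC 3, and that of all tested genes was -0.08. The split of all genes depends on scaling, since VNS-TAC was higher in 25.2% of those 1719 genes, and in 46.7% of the corresponding genes with size factors, 54.5% after quantile normalization, 10.8% with equal sums and 44.2% with the GC trend removed. Bnip3, Adm, Ankrd37 and Ndrg1 had positive and Hif1a negative fold changes in each of these settings.

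**Figure D1:**
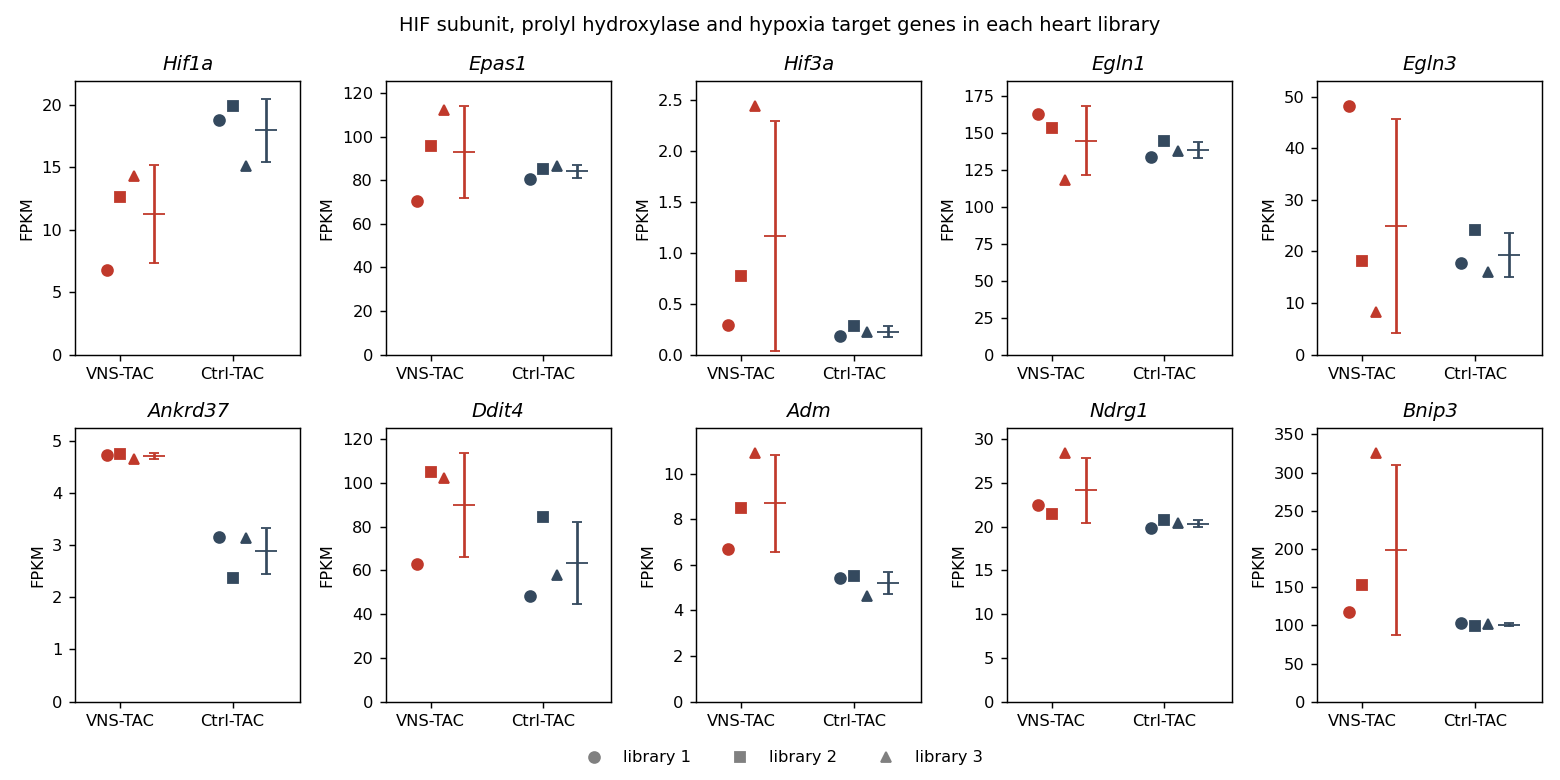
FPKM (y axis, linear from 0) of the 10 genes in the 3 VNS-TAC (red) and 3 Ctrl-TAC (blue) libraries, with the mean and SD beside the points; the marker shape gives the library number, and equal numbers are not pairs. Ankrd37, Adm, Ndrg1, Bnip3 and Hif3a lie higher in VNS-TAC with no overlap, and Hif1a lies lower.

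Hif1a encodes the oxygen-regulated subunit found in nearly all cells. Its gene (NCBI gene 15251) lies on chromosome 12, 73901324 to 73947554 (GRCm38). Its RNA was at 6.81, 12.65 and 14.31 FPKM in libraries VNS-TAC 1, 2 and 3, against 18.84, 19.93 and 15.12 FPKM in Ctrl-TAC 1, 2 and 3. Every VNS-TAC library was below every Ctrl-TAC library, and the gap between VNS-TAC 3 and Ctrl-TAC 3 was small. The means were 11.3 ± 3.94 FPKM in VNS-TAC and 18.0 ± 2.52 FPKM in Ctrl-TAC (SD, n = 3 each), a difference of -37.3% of the Ctrl-TAC mean. On the log2 scale the difference was -0.68 ± 0.26 (SE), with an unadjusted p of 0.0328 and an adjusted p of 0.295 in limma. Only 4.42% of tested genes had a larger absolute fold change.

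Hif1a differed by -0.38 once VNS-TAC 1 was left out. The Hif1a transcript has a GC content of 41.3%. With the GC trend of each library removed, the log2 fold change was -0.41 (adjusted p = 0.298). Bnip3, whose transcript has nearly the same GC content (41.6%), differed in the opposite direction, by 1.09 in that setting. The part of GC content in these differences was not tested. Of the 5896 exon bases of Hif1a, 330 are shared with the antisense gene Gm15283 and 148 with Gm49321 on the same strand, so reads there are uncertain.

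Epas1, which encodes the HIF-2 alpha subunit and is known for its high level in endothelium, was the most abundant alpha subunit in FPKM. It maps to chromosome 17, 86753864 to 86833410. Levels were 70.32, 95.96 and 112.5 FPKM in libraries VNS-TAC 1, 2 and 3, against 80.77, 85.14 and 86.6 FPKM in Ctrl-TAC. The Ctrl-TAC values were close together and fell inside the VNS-TAC range. In limma the log2 fold change was 0.12 ± 0.18 (SE; limma adjusted p = 0.76), 0.3 without VNS-TAC 1 and -0.03 without VNS-TAC 3. Endothelial markers (7 of 7, none at 0) summed to 272 to 339 FPKM in VNS-TAC libraries, against 338 to 383 FPKM in Ctrl-TAC, and none of them passed the adjusted threshold. Cdh5, Tie1 and Egfl7 were lower without overlap (log2 fold changes -0.33, -0.42 and -0.34), Tek, Kdr and Emcn were lower on average with overlap, and Pecam1 differed by 0.02. Their part in the Epas1 level was not tested.

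The balance of both subunits was compared inside each library, where scaling of the library has no effect. Hif1a stood at 0.0968, 0.132 and 0.127 of the Epas1 level in VNS-TAC 1, 2 and 3, against 0.233, 0.234 and 0.175 in Ctrl-TAC. The ratio was lower in every VNS-TAC library than in any Ctrl-TAC library. Hif1a alone was already lower without overlap, so the ratio is not a result separate from it. On the log2 scale the ratio averaged -3.09 ± 0.24 in VNS-TAC and -2.24 ± 0.24 in Ctrl-TAC (SD, n = 3 each), a difference of -0.85 (2-sided exact permutation p = 0.1, the smallest the design allows). Both groups had the same spread here, unlike the spread of either gene alone, and the difference was -0.71 to -0.99 with any 1 library left out and -0.57 with the GC trend removed.

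**Figure D2:**
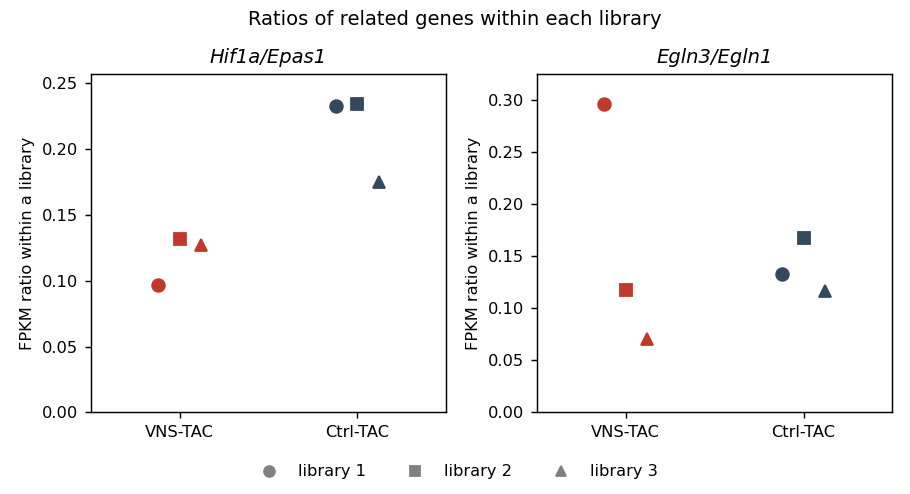
FPKM ratio within each library (y axis, linear from 0) of Hif1a to Epas1 (left) and Egln3 to Egln1 (right) in VNS-TAC (red) and Ctrl-TAC (blue), 1 point per library with its number as marker shape. The Hif1a to Epas1 ratio is 0.0968 to 0.132 in VNS-TAC and 0.175 to 0.234 in Ctrl-TAC; the Egln3 to Egln1 ratio spans 0.0704 to 0.296 in VNS-TAC and encloses the Ctrl-TAC points.

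Hif3a encodes the remaining alpha subunit, forms of which restrain the other HIFs. On chromosome 7, 17030993 to 17062427, it had 0.29, 0.77 and 2.44 FPKM in libraries VNS-TAC 1, 2 and 3, against 0.18, 0.28 and 0.22 FPKM in Ctrl-TAC. By the weak depth estimate these were roughly 31, 77 and 257 fragments in VNS-TAC against 17, 26 and 22 in Ctrl-TAC. The groups did not overlap, but VNS-TAC 1 was above Ctrl-TAC 2 by only 0.29 against 0.28 FPKM, and most of the difference lay in VNS-TAC 3. The mean was 1.17 ± 1.13 FPKM in VNS-TAC and 0.227 ± 0.0503 FPKM in Ctrl-TAC (SD, n = 3 each; 2-sided exact permutation p = 0.1, the smallest possible). With no filter on low values, limma gave a log2 fold change of 0.7 and an adjusted p of 0.446. The difference on that scale was 0.3 without VNS-TAC 3 and 1.01 without VNS-TAC 1. In VNS-TAC 3 the glucocorticoid-responsive gene Fkbp5 was also high, at 61.01 FPKM against 7.25 and 16.99 FPKM in VNS-TAC 1 and 2 and 6.71 to 11.17 FPKM in Ctrl-TAC. The 7 glucocorticoid-responsive genes summed to 981 FPKM in VNS-TAC 3, 481 and 608 FPKM in VNS-TAC 1 and 2, and 442 to 503 FPKM in Ctrl-TAC. Mt1 (533.6 FPKM) and Mt2 (207 FPKM) made up most of the sum in VNS-TAC 3, and Mt1 was the only gene of the list above Ctrl-TAC in all 3 VNS-TAC libraries. Sgk1 was at 30.41 FPKM in VNS-TAC 3 against 57.56 to 88.72 FPKM in Ctrl-TAC, and Tsc22d3 at 71.44 FPKM in VNS-TAC 3 was inside the Ctrl-TAC range, so the list was not uniformly high there. The part of these genes in the levels of Hif3a, Ddit4 and Bnip3 was not tested.

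Egln1 (PHD2), the main oxygen sensor that hydroxylates the alpha subunits, was the most abundant of the 10 genes in Ctrl-TAC. Its RNA, from chromosome 8, 124908587 to 124949254, reached 162.8, 153.64 and 118.41 FPKM in libraries VNS-TAC 1, 2 and 3, against 133.77, 144.65 and 137.61 FPKM in Ctrl-TAC. VNS-TAC 3 was below and the other VNS-TAC libraries above all Ctrl-TAC values. The log2 fold change was 0.05 ± 0.15 (SE; limma adjusted p = 0.882), and its sign turned without VNS-TAC 1 (-0.04) and with equal library sums (-0.03). Without VNS-TAC 3 it was 0.19.

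Egln3 (PHD3), the hydroxylase known for its strong induction by hypoxia, had the widest spread among the VNS-TAC libraries on the log2(FPKM + 1) scale (SD 1.2), though relative to its mean FPKM Hif3a varied more, with coefficients of variation of 83.5% for Egln3 and 96.7% for Hif3a. It maps to chromosome 12, 54178981 to 54203874. Levels were 48.23, 18.12 and 8.34 FPKM in libraries VNS-TAC 1, 2 and 3, against 17.73, 24.25 and 16.11 FPKM in Ctrl-TAC. VNS-TAC 1 was above and VNS-TAC 3 below every Ctrl-TAC library, so the mean of the group describes none of its libraries. The log2 fold change of 0.04 ± 0.54 (SE; limma adjusted p = 0.975) was 0.61 without VNS-TAC 3 and -0.59 without VNS-TAC 1. The ratio of Egln3 to Egln1 in a library was 0.296, 0.118 and 0.0704 in VNS-TAC, against 0.133, 0.168 and 0.117 in Ctrl-TAC, a log2 difference of -0.03 (2-sided exact permutation p = 1.0). Egln3 and Hif3a thus ordered the VNS-TAC libraries in opposite ways, Egln3 being highest and Hif3a lowest in VNS-TAC 1.

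Ankrd37, a small ankyrin repeat protein gene used as a marker of the hypoxia response, gave the most even difference. On chromosome 8, 45996908 to 46000414, it had 4.73, 4.75 and 4.65 FPKM in libraries VNS-TAC 1, 2 and 3, against 3.15, 2.37 and 3.13 FPKM in Ctrl-TAC. The lowest VNS-TAC library was well above the highest Ctrl-TAC library. The mean was 4.71 ± 0.0529 FPKM in VNS-TAC and 2.88 ± 0.445 FPKM in Ctrl-TAC (SD, n = 3 each), or 1.63 times as high. On the log2 scale the difference was 0.56 ± 0.14 (SE), with the smallest unadjusted p of the 10 genes, 0.00387, which ranked 205 of 11422, and an adjusted p of 0.214 in limma. It was 0.46 to 0.61 with any 1 library left out.

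The counts behind Ankrd37 are small, roughly 110 to 117 fragments in VNS-TAC and 51 to 73 in Ctrl-TAC. Of its 1539 exon bases in GENCODE M21, 349 also belong to Lrp2bp and 57 to Ufsp2 on the opposite strand, and the sources used here do not say whether counting used strand. Lrp2bp was at 0.19, 0.39 and 0.18 FPKM in VNS-TAC hearts, against 0.45, 0.5 and 0.25 FPKM in Ctrl-TAC, lower on average with overlap. Ufsp2 overlapped between the groups, at 8.75, 10.37 and 13.56 FPKM in VNS-TAC libraries, against 10.72, 9.8 and 10.57 FPKM in Ctrl-TAC. The part of reads from both genes in the Ankrd37 level was not tested.

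Adm encodes adrenomedullin, a peptide that widens vessels and is induced by hypoxia and by load. Its RNA, from chromosome 7, 110627657 to 110629820, reached 6.68, 8.51 and 10.9 FPKM in libraries VNS-TAC 1, 2 and 3, against 5.43, 5.53 and 4.64 FPKM in Ctrl-TAC. All VNS-TAC libraries were higher, VNS-TAC 1 by the smallest margin. The mean was 8.7 ± 2.12 FPKM in VNS-TAC and 5.2 ± 0.488 FPKM in Ctrl-TAC (SD, n = 3 each), and the log2 fold change was 0.63 ± 0.18 (SE; unadjusted p = 0.00984, limma adjusted p = 0.245). With any 1 library left out the fold change was 0.47 to 0.78, and with other scalings 0.56 to 0.75.

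Bnip3, an outer mitochondrial membrane protein that recruits the autophagy machinery and can promote cell death, had the largest fold change of the 9 tested genes. It maps to chromosome 7, 138890836 to 138909506. Levels were 117.79, 153.29 and 325.62 FPKM in libraries VNS-TAC 1, 2 and 3, against 102.95, 98.6 and 101.69 FPKM in Ctrl-TAC. The Ctrl-TAC libraries were nearly equal, and all VNS-TAC libraries were above them to very different degrees. The mean was 199 ± 111 FPKM in VNS-TAC and 101 ± 2.24 FPKM in Ctrl-TAC (SD, n = 3 each). In limma the log2 fold change was 0.83 ± 0.34 (SE; unadjusted p = 0.0419, limma adjusted p = 0.315), and 0.41 without VNS-TAC 3. Of tested genes 2.3% had a larger absolute fold change. An antisense gene, Gm45507, shares 504 of the 2265 exon bases of Bnip3, and without strand its reads cannot be told apart.

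Its relative Bnip3l, which serves the same removal of mitochondria and is also a hypoxia target, was at 11.44, 17.7 and 25.6 FPKM in VNS-TAC hearts, against 19.04, 18.95 and 18.76 FPKM in Ctrl-TAC. Bnip3l overlapped (log2 fold change -0.12 ± 0.26, SE; limma adjusted p = 0.836), but its VNS-TAC libraries stood in the same order as those of Bnip3, with VNS-TAC 3 highest and VNS-TAC 1 lowest.

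Ddit4 (REDD1), an inhibitor of mTORC1 signalling that is induced by hypoxia, by glucocorticoids and by energy stress, overlapped. On chromosome 10, 59949675 to 59951770, it had 62.75, 105.26 and 102.1 FPKM in libraries VNS-TAC 1, 2 and 3, against 48.12, 84.5 and 57.86 FPKM in Ctrl-TAC. VNS-TAC 2 and 3 were above all Ctrl-TAC libraries, and VNS-TAC 1 was below Ctrl-TAC 2. The log2 fold change was 0.5 ± 0.27 (SE; limma adjusted p = 0.401), and 0.32 without Ctrl-TAC 1. Ddit4 was the only 1 of the 10 genes, besides Ankrd37, whose FPKM varied more in Ctrl-TAC relative to its mean, with coefficients of variation of 26.3% in VNS-TAC and 29.7% in Ctrl-TAC.

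Ndrg1, a stress-response protein gene long used as a readout of hypoxia, showed a small difference. Its RNA, from chromosome 15, 66929318 to 66969641, reached 22.5, 21.46 and 28.4 FPKM in libraries VNS-TAC 1, 2 and 3, against 19.88, 20.7 and 20.46 FPKM in Ctrl-TAC. The groups did not overlap, though VNS-TAC 2 was close to Ctrl-TAC 2. On the log2 scale the difference was 0.22 ± 0.14 (SE; limma adjusted p = 0.447), and 0.11 both without VNS-TAC 3 and with library weights. Antisense genes Gm17035 and Gm2895 share 419 and 137 of its 6596 exon bases.

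**Figure D3:**
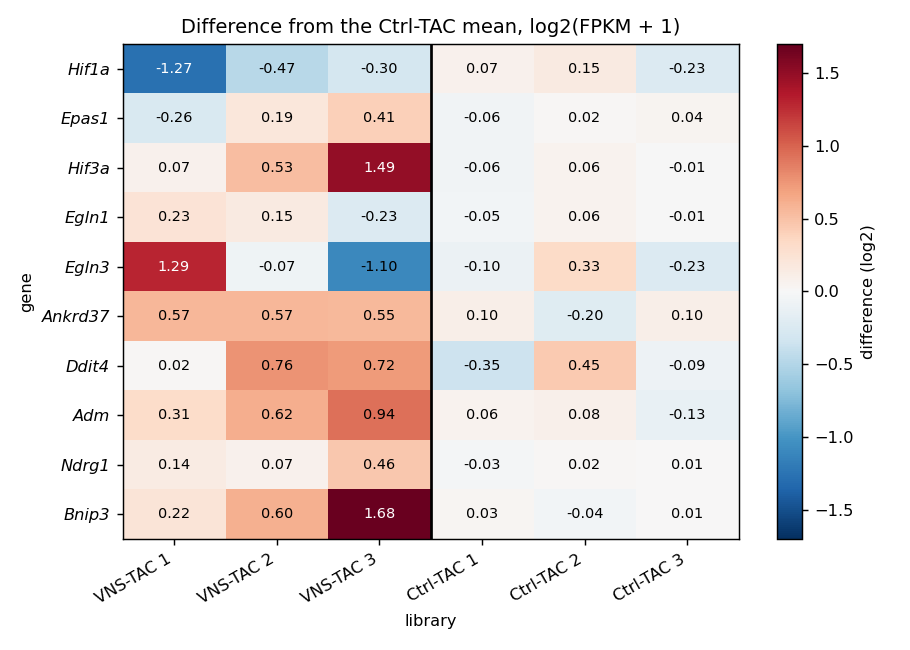
Difference of each library from the Ctrl-TAC mean on the log2(FPKM + 1) scale, for the 10 genes (rows) in the VNS-TAC (left) and Ctrl-TAC (right) libraries; red is higher and blue lower. Ankrd37 is 0.55 to 0.57 in all VNS-TAC libraries, while Bnip3 runs from 0.22 to 1.68 and Egln3 from -1.10 to 1.29.

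The 10 genes did not move as a block among the VNS-TAC libraries. VNS-TAC 3 held the highest value of the 3 for 6 genes (Hif1a, Epas1, Hif3a, Adm, Ndrg1 and Bnip3), and VNS-TAC 1 the lowest for 6 (Hif1a, Epas1, Hif3a, Ddit4, Adm and Bnip3). Egln1 and Egln3 showed the reverse order, being highest in VNS-TAC 1 and lowest in VNS-TAC 3. These libraries also stood farthest apart across genes (correlation 0.941). The share of all genes with either order was not taken, so the counts are not a trait of these genes. Hif1a was highest within VNS-TAC in the library where Bnip3 and Adm were highest as well, although across the groups Hif1a lay in the other direction. On the log2 scale the spread was larger in VNS-TAC for 9 of the 10 genes, Ankrd37 excepted, with Ddit4 nearly equal at 0.41 in both groups. The same held for 81.6% of all tested genes, so the wider spread was not limited to these 10. The median SD was 0.38 in VNS-TAC and 0.09 in Ctrl-TAC for the 10 genes, and 0.25 in VNS-TAC and 0.11 in Ctrl-TAC for all tested genes.

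The genes most like Ankrd37, Adm and Hif1a over the 6 libraries were found by Pearson correlation of log2(FPKM + 1), as a description. For Ankrd37 they were Fbxo9 (0.994), Mrps30 (0.987) and Elmod3 (0.984), and 107 genes exceeded 0.9. For Adm they were Rnf220 (0.996), Ggt5 (0.993) and Slc25a4 (0.991), with 275 genes above 0.9. Slc25a4, the adenine nucleotide carrier of heart mitochondria, was at 6821, 7426 and 9349 FPKM in VNS-TAC hearts, against 5534, 5697 and 5120 FPKM in Ctrl-TAC. For Hif1a they were Etnk1, Snap23 and Eps15, each at 0.998 or above, and 1312 genes exceeded 0.9. The profile of Hif1a was thus shared by many genes of these libraries, with VNS-TAC 1 lowest, and that of Ankrd37 by few.

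The rest of the oxygen-sensing machinery was described from 14 listed genes, of which 13 were tested. None passed the adjusted threshold. By the unadjusted p none was higher and 1 was lower (7.69%), against 3.79% and 11.3% of all tested genes. Their median log2 fold change was -0.04, against -0.08 for all tested genes. It was positive with size factors (0.02), quantile normalization (0.03) and the GC trend removed (0.09). The median of all tested genes was -0.02, 0.01 and 0.0 in those settings. The 1 lower gene was Hif1an, the asparagine hydroxylase that blocks the transactivation domain of HIF alpha subunits. Hif1an was at 17.8, 18.54 and 16.83 FPKM in VNS-TAC libraries, against 20.68, 21.34 and 24.41 FPKM in Ctrl-TAC (log2 fold change -0.3 ± 0.12, SE; limma adjusted p = 0.302). P4htm, a membrane-bound prolyl hydroxylase, was at 10.25, 10.84 and 11.16 FPKM in VNS-TAC libraries, against 8.27, 9.11 and 9.94 FPKM in Ctrl-TAC, again without overlap (adjusted p = 0.412). Groups thus did not overlap for 1 of the 13 in each direction (7.69%), against 8.01% higher and 17.4% lower of all tested genes. Egln2 (PHD1) was at 36.75 to 49.18 FPKM in VNS-TAC libraries, against 33.92 to 36.83 FPKM in Ctrl-TAC, and overlapped. Arnt, the partner of every alpha subunit, was at 12.38, 15.06 and 18.84 FPKM in VNS-TAC libraries, against 14.99 to 15.63 FPKM in Ctrl-TAC, and Vhl at 3.55 to 4.47 FPKM in VNS-TAC against 3.78 to 4.11 FPKM in Ctrl-TAC. The ubiquitin ligase scaffold Cul2 (6.26 to 11.88 FPKM in VNS-TAC, 10.65 to 14.47 FPKM in Ctrl-TAC) and the coactivator Ep300 (4.12 to 7.5 FPKM in VNS-TAC, 7.05 to 8.69 FPKM in Ctrl-TAC) overlapped as well.

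Other known hypoxia targets lay in both directions. Of 60 listed genes 59 were matched and 55 tested, with 23 higher and 32 lower on average, and none passed the adjusted threshold. Of the 55, 5 were higher (9.09%) and 9 lower (16.4%) by the unadjusted p, against 3.79% and 11.3% of all tested genes. Groups did not overlap for 6 genes in the higher and 12 in the lower direction, 10.9% and 21.8% of the list, against 8.01% and 17.4% of all tested genes. These 55 targets had a median log2 fold change of -0.12, against -0.08 for all tested genes. With the GC trend removed these medians were 0.04 and 0.0. No set test was made.

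Several targets with the smallest unadjusted p were lower in VNS-TAC. Angptl4, an inhibitor of lipoprotein lipase, was at 1.74, 2.09 and 0.96 FPKM in VNS-TAC libraries, against 4.52, 3.87 and 5.27 FPKM in Ctrl-TAC (adjusted p = 0.177). Ppp1r3c, a regulator of glycogen synthesis, was at 56.53, 50.1 and 30.79 FPKM in VNS-TAC libraries, against 74.55, 67.29 and 78.65 FPKM in Ctrl-TAC (adjusted p = 0.251). Vegfa, the main growth factor for vessels, was at 92.32, 102.81 and 72.91 FPKM in VNS-TAC libraries, against 126.89, 160.76 and 99.45 FPKM in Ctrl-TAC, and VNS-TAC 2 was above Ctrl-TAC 3 (adjusted p = 0.314).

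Targets that modify collagen were mostly lower on average. P4ha1 measured 12.24, 9.04 and 6.5 FPKM in VNS-TAC libraries, against 22.63, 32.11 and 28.24 FPKM in Ctrl-TAC. P4ha1 and P4ha2, which encode catalytic subunits of collagen prolyl hydroxylase, had log2 fold changes of -1.51 ± 0.23 and -0.57 ± 0.16 (SE; limma adjusted p = 0.156 and 0.244). The lysyl hydroxylase gene Plod1 was at 43.33, 30.18 and 23.32 FPKM in VNS-TAC libraries, against 48.42, 48.51 and 52.44 FPKM in Ctrl-TAC, and Plod2 at 2.6, 6.03 and 5.72 FPKM in VNS-TAC against 8.61, 8.63 and 8.06 FPKM in Ctrl-TAC. These 4 genes, named for their small unadjusted p, did not overlap between the groups, as was so in the lower direction for 17.4% of all tested genes. With the crosslinking enzyme genes Lox and Loxl2, a grouping made after the values were seen, 5 of 6 (83.3%) were lower on average, against 61.8% of all tested genes, and Lox was not. The fibroblast markers (6 of 6, none at 0) summed to 230, 304 and 428 FPKM in VNS-TAC 1, 2 and 3 and to 363 to 395 FPKM in Ctrl-TAC. Dcn made up most of that sum (151.6, 240.79 and 387.71 FPKM in VNS-TAC, 256.82 to 285.31 FPKM in Ctrl-TAC). Lum and Ddr2 were lower without overlap, averaging 17.1 and 2.14 FPKM in VNS-TAC against 40.3 and 3.9 FPKM in Ctrl-TAC, and Col1a1 averaged 26.1 FPKM in VNS-TAC against 48.8 FPKM in Ctrl-TAC with overlap. All 6 had negative log2 fold changes, from -1.3 to -0.15, and none passed the adjusted threshold. Several fibroblast markers were thus lower beside the collagen-modifying targets, and their part in these levels was not tested.

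Targets of glucose use lay the other way on average, in a grouping also made after the values were seen. Of 17 tested genes for glucose uptake and glycolysis 12 (70.6%) were higher and 5 lower on average, with a median log2 fold change of 0.19, against 38.2% higher and a median of -0.08 for all tested genes. The 38 other targets had a median of -0.25. The median of the glycolytic group relative to Ctrl-TAC was 0.41 in VNS-TAC 1, 0.07 in VNS-TAC 2 and -0.01 in VNS-TAC 3. Leaving out VNS-TAC 1, the library in which Bnip3 and Adm differed least, gave a median log2 fold change of 0.06. Hk1 was at 90.08, 65.41 and 87.6 FPKM in VNS-TAC libraries, against 57.76, 57.12 and 64.03 FPKM in Ctrl-TAC (adjusted p = 0.275). Hk2, chosen after its values were seen, lay the other way without overlap, at 59.16, 58.86 and 33.28 FPKM in VNS-TAC libraries, against 64.57, 66.95 and 63.32 FPKM in Ctrl-TAC (adjusted p = 0.409). The glucose transporter gene Slc2a1, Ldha and the kinase gene Pdk1, which diverts pyruvate from mitochondria, had log2 fold changes of 0.28 ± 0.21, 0.19 ± 0.19 and -0.23 ± 0.16 (SE), and of these Pdk1 alone did not overlap between the groups. Several glycolytic genes have many processed copies in the genome, so their counts are uncertain.

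**Figure D4:**
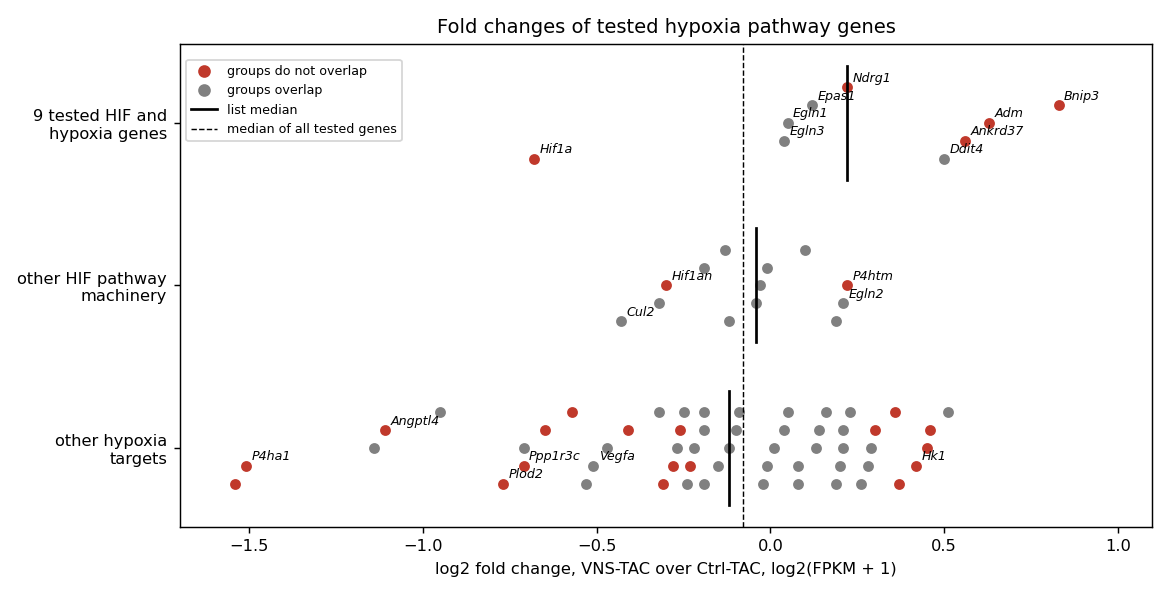
Log2 fold change (x axis, VNS-TAC over Ctrl-TAC) of each tested gene, for the 9 tested HIF and hypoxia genes, 13 other machinery genes and 55 other targets; vertical scatter within a row only separates points, red points are genes whose groups do not overlap, and some genes are named. The row medians are 0.22, -0.04 and -0.12, and the dashed line is the median of all tested genes, -0.08.

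Immediate early genes respond to handling of tissue. The 6 immediate early genes (none at 0) summed to 138, 92.1 and 52.8 FPKM in VNS-TAC 1, 2 and 3, and to 129 to 184 FPKM in Ctrl-TAC. Among them, Fosb measured 0.84, 1.13 and 0.37 FPKM in VNS-TAC hearts, against 6.28, 15.41 and 24.92 FPKM in Ctrl-TAC. Atf3 was lower without overlap as well, while Fos, Jun, Egr1 and Nr4a1 overlapped. Fos was highest in VNS-TAC 1, at 16.17 FPKM against 6.44 to 12.15 FPKM in Ctrl-TAC. Within VNS-TAC, Hif1a, Epas1, Hif3a, Adm and Bnip3 ran in the reverse order of the sums. Egln1 and Egln3 ran in the same order, and Ankrd37, Ddit4 and Ndrg1 in neither. Sums of cardiomyocyte, endothelial, macrophage and red blood cell markers also fell from VNS-TAC 1 to VNS-TAC 3 in steps. Those of fibroblast markers and glucocorticoid-responsive genes rose, so the order is not particular to the immediate early genes. The part of handling in the levels of the 10 genes was not tested.

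**Figure D5:**
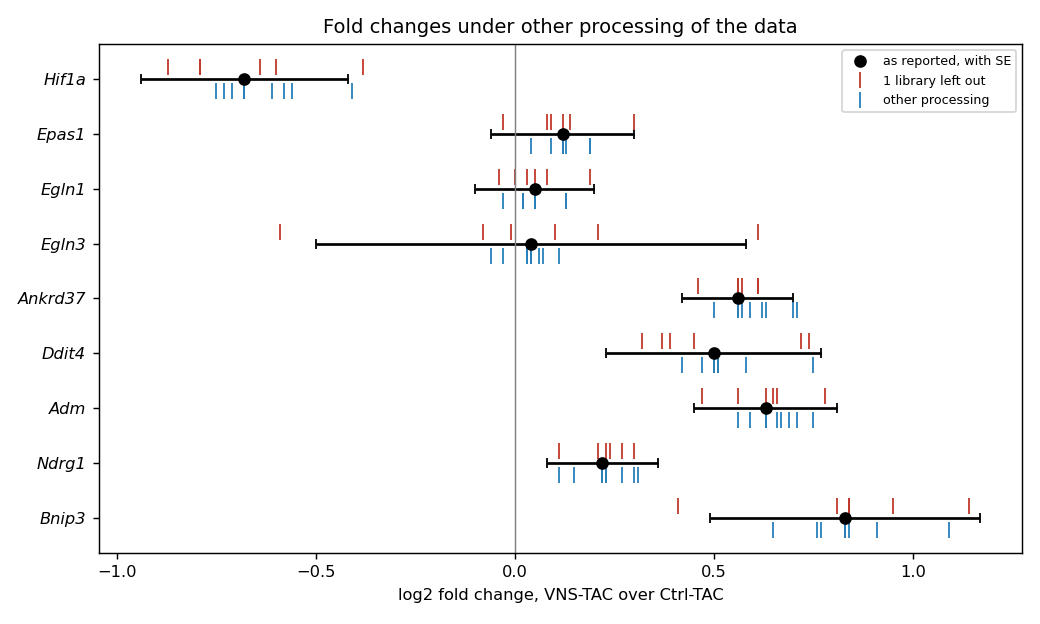
Log2 fold change (x axis, VNS-TAC over Ctrl-TAC) of the 9 tested genes as reported with its SE (black), with 1 library left out (red ticks) and under other processing (blue ticks). Hif1a stays below 0 and Ankrd37, Ddit4, Adm, Ndrg1 and Bnip3 stay above 0 in all of these settings, while Epas1, Egln1 and Egln3 cross 0.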

How the data were processed

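Heart RNA of 3 VNS-TAC and 3 Ctrl-TAC libraries was enriched on oligo-dT beads according to the labels' protocols. The authors deposited FPKM values to 2 decimals, per the file headers, and per the submitters' processing notes HISAT, featureCounts 1.5.0-p3, DESeq 1.8.3 and GRCm38 were involved. Their roles, the annotation and the strand setting were not given in the sources used here. Ctrl-TAC columns were matched by library name, while VNS-TAC columns, numbered 1 to 3 where the labels have 4 to 6, were used as 3 libraries of their group and keep the table's numbers.

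Symbols came from RefSeq (GRCm38.p6) for 17890 of 18019 NCBI gene IDs and from GENCODE M21 for 14. Values were analysed as log2(FPKM + 1) for genes averaging 1 FPKM or more, with limma 3.58.1 (intensity trend, R 4.3.3) and group as the only term. The fit was checked on simulated data with equal spread in both groups, so the check did not cover the wider spread of VNS-TAC. Within-library ratios were compared by exact permutation (scipy 1.17.1). FPKM holds no depth, so depth was estimated from steps between low values of genes with 1 RefSeq transcript and is approximate and weakly determined. GC trends were removed by lowess (statsmodels 0.14.6) on the GC content of the longest transcript. Text names the 10 genes, preset machinery and target genes plus those of smallest unadjusted p in each list (3 and 8), the 3 genes most like each of 3 members, and defining genes of the marker lists. Other names were chosen after values were seen. A gene that this rule takes is left out here. The 10 genes and the lists were chosen with earlier results of these data known.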

Additional observations from a re-analysis of the deposited data

How the results depend on the processing

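No gene of the 10 passed the adjusted threshold in 15 of 16 alternatives. The exception was limma with array weights, where 4 did (Ankrd37, Adm, Bnip3 and Hif1a, adjusted p = 0.0253, 0.0169, 0.0328 and 0.0441) among 1016 genes, or 8.90% of all tested; that fit gave VNS-TAC 1 and 3 weights of 0.246 and 0.247 and VNS-TAC 2 one of 2.82, so its VNS-TAC side rested mainly on 1 library. Genes past the threshold numbered 1 when only genes averaging 5 FPKM or more were kept, 2 each with size factors, quantile normalization and the GC trend removed, and 0 to 3 with 1 library left out. The median log2 fold change of the tested hypoxia genes was 0.21 to 0.39 with 1 library left out. Under other processing this median was 0.15 (equal sums) to 0.36 (no filter, which adds Hif3a). That of the other targets was -0.05 with size factors, -0.06 after quantile normalization, -0.19 with equal sums and 0.04 with the GC trend removed. For all tested genes the median was -0.02, 0.01, -0.15 and 0.0 in the same settings. Directions turned for genes near 0. The Egln3 to Egln1 ratio gave a log2 difference of 0.04 after quantile normalization and 0.02 with the GC trend removed, and -0.59 to 0.44 with 1 library left out. Egln3 was -0.03 with equal sums and -0.06 with array weights, and -0.59 to 0.61 with 1 library left out. Egln1 was -0.03 with equal sums, and -0.04 to 0.19 with 1 library left out, where Epas1 was -0.03 to 0.3. Counts of genes without overlap, examined after seeing the data, were 6 higher and 1 lower without VNS-TAC 1, against 14.9% and 26.9% of all tested genes, and 5 and 1 without VNS-TAC 3, against 12.4% and 28.4%. The Hif3a difference was 0.3 to 1.01 and the glycolytic median 0.06 to 0.25 with 1 library left out, also examined after seeing the data. The cause of these shifts was not tested, apart from the weights. No paired analysis was possible because VNS-TAC columns carry numbers 1 to 3 and their labels 4 to 6, so no replicate block was fitted. Depth limits Hif3a and Ankrd37, the genes with the fewest fragments.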
